A study of Mus musculus with 16 samples.

Results

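The 43 genes described here are mouse genes of the cell division cycle, of which 17 act in DNA replication and 26 in mitosis. They were taken by gene symbol from a fixed list of names, and all 43 were present among the 24421 genes of the deposited count table. The split into replication and mitotic genes follows the phase in which each product is known to act. The RNA came from naive T cells of C57BL/6 mouse lymph nodes, sorted as negative for CD25, high for CD62L and low for CD44. The CD4 CD5lo and CD4 CD5hi groups were the CD4+ cells in the lowest and highest tertile of surface CD5, and the CD8 CD5lo and CD8 CD5hi groups were the same tertiles of CD8+ cells. No treatment or engineered allele is named for any group, and the sources used here do not give the age of the mice or how many were pooled per replicate. A sorted tertile is a range of a continuous stain, so each group can hold cells in different states, and the middle tertile was not analysed here. Each group had 4 biological replicates, giving 16 libraries of 71447252 to 93418385 counts, and p-values measure the spread between these libraries.

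The cell cycle is driven by cyclins bound to cyclin-dependent kinases. Cyclin E and the E2F transcription factors start the replication programme, in which the MCM helicase opens DNA that PCNA-bound polymerases copy from nucleotides made by ribonucleotide reductase, thymidylate synthase and thymidine kinase. Cyclins A and B with CDK1 then drive mitosis, in which kinesins, aurora kinases, spindle checkpoint kinases and centromere proteins separate the chromosomes. Naive T cells in lymph nodes are mostly in a resting state, and CD5 is a surface receptor whose level on them is known to follow the strength with which their T cell receptor recognises self ligands.

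The sort was visible in the RNA of its own marker genes. Cd4 ran from 971 to 1268 CPM (counts scaled to a common library size by the TMM method) in the CD4 libraries and from 0.415 to 62.2 CPM in the CD8 libraries, and Cd8a from 1563 to 2140 CPM in CD8 and from 0.692 to 11.4 CPM in CD4 libraries. Cd5 ran from 237 to 276 CPM in CD4 CD5lo, 1349 to 1427 in CD4 CD5hi, 187 to 216 in CD8 CD5lo and 469 to 552 in CD8 CD5hi. A list of 13 B cell markers summed to 363 CPM in CD4 CD5lo replicate 3, 571 in CD8 CD5lo replicate 3 and 927 in CD8 CD5hi replicate 4, against at most 67.8 CPM in each of the other 13 libraries, and no marker was at 0 in a whole group. The same 3 libraries also held the most RNA of the opposite lineage's marker. Cd4 was 62.2 CPM in CD8 CD5hi replicate 4 and 27.2 CPM in CD8 CD5lo replicate 3, while no further CD8 library exceeded 2.51 CPM. Cd8a was 11.4 CPM in CD4 CD5lo replicate 3, followed by 5.49 CPM in CD4 CD5lo replicate 4. The source of this RNA was not tested. Results that rest on these 3 libraries are given with and without them.

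The CD8 CD5hi libraries had the highest levels of both classes. A class score, the mean over its genes of log2 CPM centred on each gene's mean over 16 libraries, was 1.13, 1.13, 0.86 and 0.22 for the replication genes in CD8 CD5hi replicates 1 to 4, against -0.53 to -0.03 in the other 12 libraries. For the mitotic genes it was 1.84, 1.95, 1.56 and 0.31 in CD8 CD5hi, against -1.03 to 0.22 elsewhere. All 4 CD8 CD5hi libraries were thus above the other 12 in both scores, with replicate 4 close to the highest CD8 CD5lo library. The mean scores rose in the order CD4 CD5lo (replication -0.43 ± 0.10, mitotic -0.81 ± 0.19; SD, n = 4), CD4 CD5hi (-0.25 ± 0.10 and -0.36 ± 0.27), CD8 CD5lo (-0.16 ± 0.14 and -0.24 ± 0.50) and CD8 CD5hi (0.83 ± 0.43 and 1.41 ± 0.75), and neighbouring groups below CD8 CD5hi overlapped in both classes. In bulk RNA, more dividing cells and more of this RNA per cell cannot be told apart.

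The mitotic genes spanned a wider range across the groups than the replication genes. The mitotic score minus the replication score was 0.71, 0.82, 0.70 and 0.10 in CD8 CD5hi replicates 1 to 4, -0.05, 0.05, 0.25 and -0.60 in CD8 CD5lo, -0.07, 0.07, -0.10 and -0.35 in CD4 CD5hi, and -0.44, -0.29, -0.31 and -0.49 in CD4 CD5lo. The difference was thus high in 3 CD8 CD5hi libraries, and replicate 4 of that group lay within the CD8 CD5lo range. Leaving Ccne1, Ccne2, E2f1 and Uhrf1 out of the replication class and Mki67, Top2a, Stmn1 and Ccna2 out of the mitotic class gave group means of the difference of 0.59 ± 0.30 in CD8 CD5hi, 0.06 ± 0.35 in CD8 CD5lo, -0.22 ± 0.18 in CD4 CD5hi and -0.43 ± 0.11 in CD4 CD5lo (SD, n = 4). These scores are descriptions and carry no test.

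**Figure D1:**
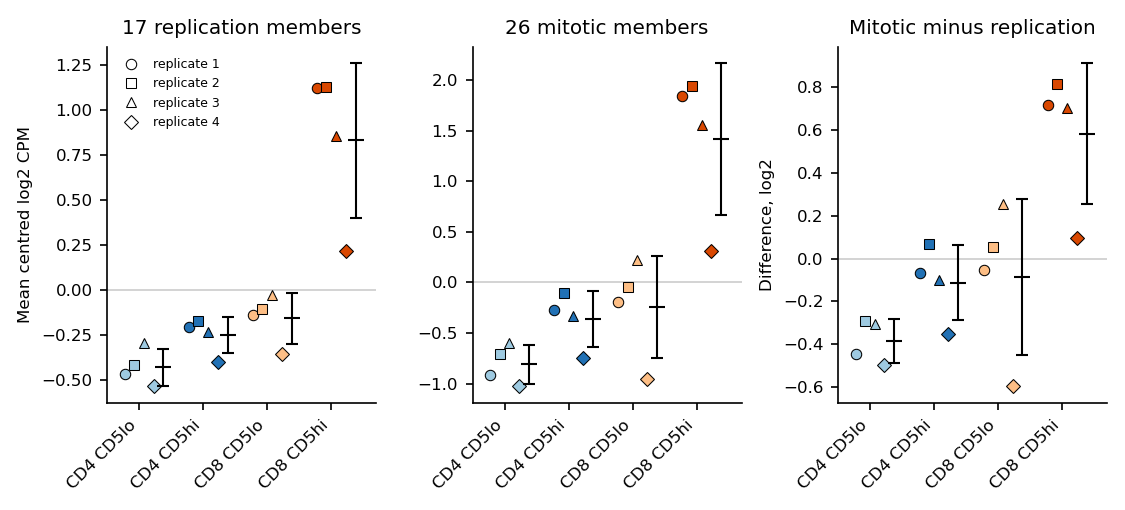
Mean centred log2 CPM of the 17 replication genes, of the 26 mitotic genes, and the difference between both, for each of 16 libraries in 4 groups. Marker shapes are replicate numbers and bars are the mean ± SD of 4 libraries. The 4 CD8 CD5hi libraries lie above the other 12 in the first and second panels, with replicate 4 at 0.22 and 0.31.

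Of the promoters found, those of Mcm6 and Mcm5 held the most E2F words (defined below) among replication genes. Those of Top2a and Mki67 were taken for the most CHR words among mitotic genes, where Mki67 tied with Cdk1 and had the smaller p in CD8 cells. These 4 genes rose with CD5 in CD8 cells, and being richest in such words they are not typical of their classes. Kif23 was added as the mitotic gene that fell. The 5 promoter sequences shown were chosen after the values were seen. Each is the 250 bases before the annotated start in RefSeq (GRCm38.p6), written 5′ to 3′ on the gene's strand, at chr1:128359706-128359955 (minus strand) for Mcm6, chr8:75109259-75109508 (plus) for Mcm5, chr11:99024190-99024439 (minus) for Top2a, chr7:135716380-135716629 (minus) for Mki67 and chr9:61946800-61947049 (minus) for Kif23. Capitals mark, on either strand, E2F words (TTCCCGC or TTCGCGC or TTGCCGC or TTGGCGC), the cell cycle gene homology region (CHR; TTTGAA or TTCGAA) and the CCAAT box (CCAAT). Overlapping matches were counted separately.
Mcm6: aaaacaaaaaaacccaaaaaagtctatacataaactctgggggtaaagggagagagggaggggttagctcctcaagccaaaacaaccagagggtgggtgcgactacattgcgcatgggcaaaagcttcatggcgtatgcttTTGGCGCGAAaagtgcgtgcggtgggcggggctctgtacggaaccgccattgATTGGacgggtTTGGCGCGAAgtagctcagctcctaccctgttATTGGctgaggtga
Mcm5: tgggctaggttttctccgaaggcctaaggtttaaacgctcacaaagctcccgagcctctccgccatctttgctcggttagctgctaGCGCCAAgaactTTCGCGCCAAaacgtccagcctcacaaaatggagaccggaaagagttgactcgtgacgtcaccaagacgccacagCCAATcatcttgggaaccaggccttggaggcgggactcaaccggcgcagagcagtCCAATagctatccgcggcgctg
Top2a: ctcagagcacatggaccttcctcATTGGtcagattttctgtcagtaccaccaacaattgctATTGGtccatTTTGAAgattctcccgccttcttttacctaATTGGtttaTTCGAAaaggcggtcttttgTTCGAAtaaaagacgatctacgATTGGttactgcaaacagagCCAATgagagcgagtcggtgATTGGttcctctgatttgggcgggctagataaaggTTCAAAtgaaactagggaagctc
Mki67: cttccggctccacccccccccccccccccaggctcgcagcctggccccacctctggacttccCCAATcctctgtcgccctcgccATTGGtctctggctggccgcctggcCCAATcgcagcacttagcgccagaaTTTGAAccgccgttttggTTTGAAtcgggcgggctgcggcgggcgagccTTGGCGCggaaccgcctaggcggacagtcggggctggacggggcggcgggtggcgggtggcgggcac
Kif23: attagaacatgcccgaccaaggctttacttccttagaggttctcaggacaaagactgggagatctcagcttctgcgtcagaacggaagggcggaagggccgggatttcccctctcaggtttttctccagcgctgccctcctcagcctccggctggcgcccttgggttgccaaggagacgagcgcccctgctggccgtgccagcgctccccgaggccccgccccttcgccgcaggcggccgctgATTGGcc
The Mcm6 window held 4 E2F words and that of Mcm5 3, with 0 CHR words in either. The Top2a window held 4 CHR words, 6 CCAAT boxes and 0 E2F words, and that of Mki67 2 CHR words, 3 CCAAT boxes and 1 E2F word. The Kif23 window held 1 CCAAT box and no match to the other words.

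A promoter was found for 36 of the 43 genes, 15 of the replication and 21 of the mitotic class. E2F words were present in 46.7% of the replication windows and 14.3% of the mitotic windows, and in 7.97% of all 27025 promoters of the same length. CHR words were in 20.0%, 42.9% and 17.4%, and CCAAT boxes in 66.7%, 85.7% and 34.5%. A CHR word together with a CCAAT box was in 20.0% of replication, 38.1% of mitotic and 6.21% of all windows. A match is a description of these letters and not a site or a cause.

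The levels of the genes differed widely, and they were compared per kb of exon (GENCODE vM21). The length is that of the joined exons of all annotated transcripts of a gene. It can exceed the length of any single transcript, so ranks per kb depend on this choice. Pcna, the sliding clamp of the DNA polymerases, was the highest with 70.8 CPM per kb as a mean of 16 libraries. The 6 genes of the MCM helicase followed, from 28.5 for Mcm4, 21.3 for Mcm7, 20.6 for Mcm6, 19.8 for Mcm3 and 17.0 for Mcm5 to 13.1 CPM per kb for Mcm2. Stmn1, a microtubule regulator, led the mitotic genes with 9.07 CPM per kb, before the centromeric histone gene Cenpa with 6.51 and Cdc20, the activator of the anaphase-promoting complex, with 4.77. The order of Stmn1 and Cenpa rests on exon lengths of 1922 and 5860 bases. Without division by length, Cenpa had the higher mean CPM in all 4 groups (30.6 to 44.9 against 5.69 to 31.0). At the lower end were Cenpf with 0.110, Kif2c with 0.212, Ccnb1 with 0.269, Kif4 with 0.281 and Bub1 with 0.297 CPM per kb. Summed per kb, the replication genes gave 169 to 210 in the 12 libraries outside CD8 CD5hi and 341, 339, 292 and 214 CPM per kb in CD8 CD5hi replicates 1 to 4. The mitotic genes gave 27.1 to 41.0 in the same 12 libraries and 91.1, 102, 81.8 and 40.0 CPM per kb in CD8 CD5hi. The ratio of the replication to the mitotic sum was 4.77 to 6.84 in the 12 libraries, 3.74, 3.33 and 3.58 in CD8 CD5hi replicates 1 to 3 and 5.36 in replicate 4.

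All 43 genes passed the filter on low counts and were tested. Of these, 41 exceeded its cutoff of 0.127 CPM in every library of all 4 groups. Bub1 did so only in the 2 CD8 groups, and Cenpf in all groups but CD4 CD5lo, so changes of these genes in CD4 cells rest on few counts.

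**Figure D2:**
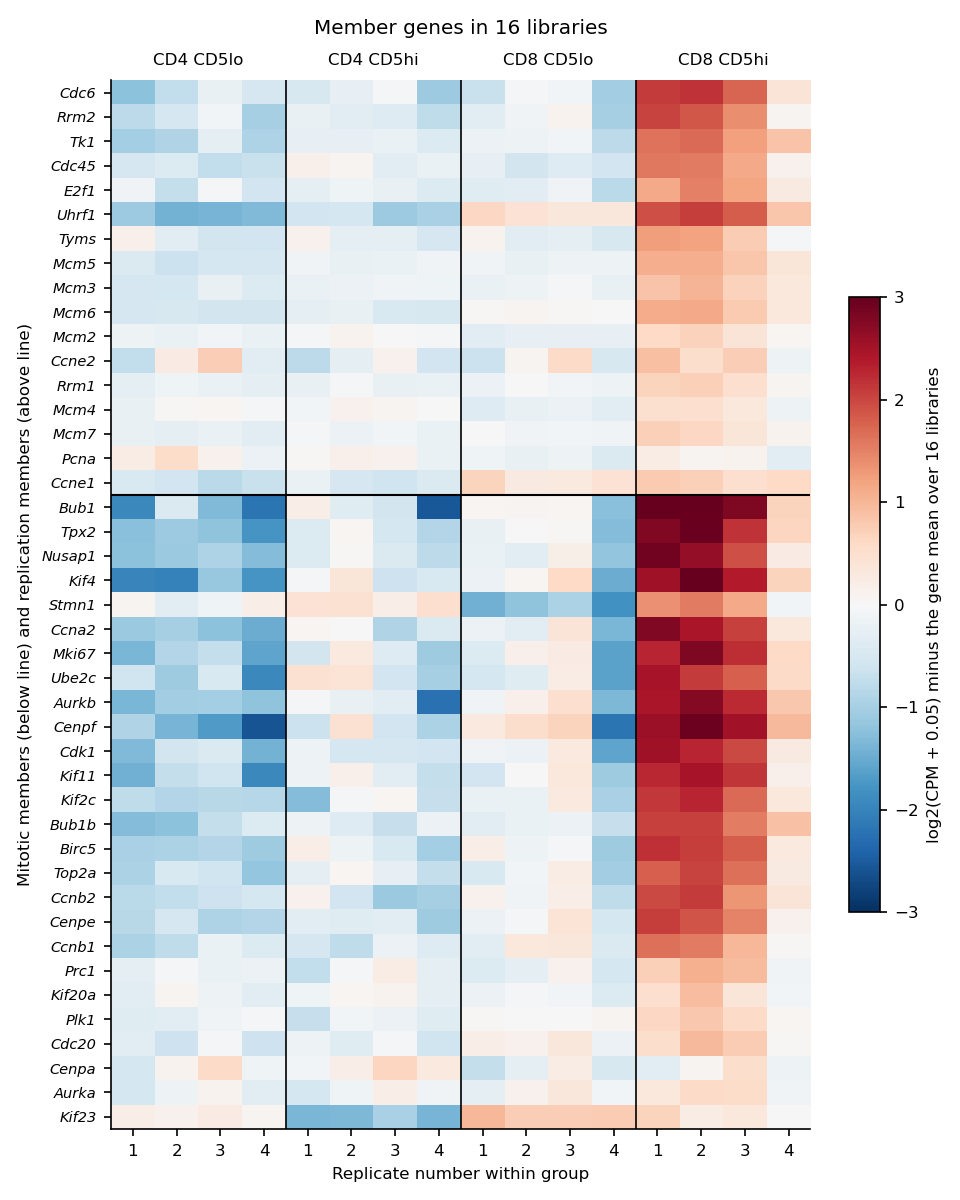
Each row is a gene and each column a library, in 4 groups of 4 replicates. Colour is log2(CPM + 0.05) minus the gene's mean over 16 libraries, from blue (lower) to red (higher), limited to 3 either way. Red fills CD8 CD5hi replicates 1 to 3 in most rows and is pale in replicate 4, and the bottom row, Kif23, is blue in CD4 CD5hi.

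In CD8 cells, most genes of both classes were higher at high CD5. Tested with edgeR over all 13554 genes, 14 of the 17 replication genes rose and 0 fell, with a median log2 change of 0.90, and 21 of the 26 mitotic genes rose and 1 fell, with a median of 2.07. Of all tested genes, 5.95% rose and 3.51% fell in this comparison, and their median change was -0.003. Every one of the 43 genes but Kif23 had a positive change. The CD8 CD5hi libraries were all above the CD8 CD5lo libraries for 12 replication and 14 mitotic genes, 26 in all, against 8.31% of all tested genes. The replication genes that did not pass were Pcna, Ccne1 and Ccne2, and the mitotic ones were Cdc20, Aurka, Plk1 and Cenpa. With the replicate number as a block, 40 of the 43 genes rose (13.4% of all tested genes), with Pcna, Ccne1, Cdc20, Plk1 and Cenpa added. That fit is given at the end, since the numbers did not pair the CD8 groups by the rule used.

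Among the helicase genes, Mcm5 (chromosome 8, 75109569 to 75128439, plus strand) had 58.5, 54.0, 56.9 and 56.6 CPM in CD8 CD5lo replicates 1 to 4 and 134, 133, 112 and 80.3 in CD8 CD5hi. The groups did not overlap, and the gene rose by 1.02 ± 0.12 (edgeR adjusted p = 7.43e-05), or 2.03-fold, where each change is on the log2 scale and given ± SE. Mcm3 went from 61.0, 63.0, 68.6 and 59.9 to 127, 143, 113 and 87.0 CPM and rose by 0.90 ± 0.12 (edgeR adjusted p = 0.000179). Mcm2 went from 71.0, 75.4, 75.3 and 75.6 to 134, 143, 117 and 92.8 CPM and rose by 0.71 ± 0.10 (edgeR adjusted p = 0.000304). In these 3 genes the CD8 CD5lo libraries lay close together, and CD8 CD5hi replicate 4 was the lowest of its group while still above them. Mcm4 (76.7, 86.0, 88.9 and 81.4 against 142, 142, 126 and 90.3 CPM) rose by 0.58 ± 0.12 (edgeR adjusted p = 0.00405), with its replicate 4 just above the highest CD8 CD5lo library. Mcm7 (92.5, 85.5, 87.5 and 85.6 against 152, 141, 119 and 98.4 CPM) rose by 0.54 ± 0.10 (edgeR adjusted p = 0.0031). Mcm6, whose promoter holds 4 E2F words, had 91.4, 94.2, 91.5 and 89.0 against 192, 195, 152 and 111 CPM. It rose by 0.82 ± 0.13 (edgeR adjusted p = 0.000786), so that all 6 helicase genes rose, by 0.54 to 1.02. Other genes, among them Ap4m1 and microRNA genes, cover 12.6% of the exonic bases of Mcm7.

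Most genes of nucleotide supply and of origin firing rose further. Tk1, thymidine kinase, had 2.75, 2.82, 2.94 and 1.81 CPM in CD8 CD5lo and 9.76, 10.3, 7.37 and 5.73 in CD8 CD5hi, a rise of 1.69 ± 0.22 (edgeR adjusted p = 0.000163) or 3.22-fold. The groups were apart, with replicate 4 the lowest in each. Rrm2, the regulated subunit of ribonucleotide reductase, rose by 1.80 ± 0.34 (edgeR adjusted p = 0.00302), and its large subunit Rrm1 by 0.61 ± 0.11 (edgeR adjusted p = 0.00178). Tyms, thymidylate synthase, rose by 1.10 ± 0.25 (edgeR adjusted p = 0.0103). Cdc6, which loads the helicase on origins, had the largest rise of the class (2.17 ± 0.36, edgeR adjusted p = 0.00132), from 1.91 ± 0.62 to 8.63 ± 3.77 CPM (SD, n = 4). Cdc45, a helicase cofactor, rose by 1.66 ± 0.24 (edgeR adjusted p = 0.00044), and Uhrf1, which maintains DNA methylation at replication forks, by 1.29 ± 0.20 (edgeR adjusted p = 0.000794). E2f1, a transcription factor of the programme, went from 4.66, 4.81, 5.57 and 3.43 to 13.4, 17.2, 13.7 and 7.23 CPM, with no overlap and a rise of 1.48 ± 0.23 (edgeR adjusted p = 0.000647).

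The 3 replication genes that did not pass without the block were the clamp and both cyclins E. Pcna had 154, 145, 151 and 124 CPM in CD8 CD5lo and 195, 178, 179 and 133 in CD8 CD5hi, with overlapping groups, and its change was 0.26 ± 0.14 (edgeR adjusted p = 0.298). Ccne1, cyclin E1, had 30.5, 23.2, 23.6 and 25.8 against 33.0, 31.7, 27.2 and 28.9 CPM, also overlapping, and a change of 0.23 ± 0.11 (edgeR adjusted p = 0.233). Ccne2, cyclin E2, changed by 0.61 ± 0.36 (edgeR adjusted p = 0.336). Ccne2 shares 17.4% of its exonic bases with Ints8 on the opposite strand, and since the sources used here do not give the strand setting of the counting, reads of the 2 genes cannot be told apart there.

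Of the mitotic genes, Stmn1 (chromosome 4, 134468320 to 134473843, plus strand) had the smallest p. It had 5.20, 6.17, 7.35 and 4.04 CPM in CD8 CD5lo and 37.0, 42.0, 31.4 and 13.6 in CD8 CD5hi, and rose by 2.45 ± 0.27 (edgeR adjusted p = 5.16e-05), or 5.45-fold. The groups did not overlap, with replicate 4 the lowest of CD8 CD5hi. Bub1b, a kinase-like protein of the spindle checkpoint, went from 2.35, 2.61, 2.67 and 1.84 to 12.6, 12.5, 8.76 and 5.58 CPM and rose by 2.06 ± 0.26 (edgeR adjusted p = 0.000142). Tpx2, which activates aurora A on the spindle, went from 1.36, 1.62, 1.64 and 0.625 to 11.4, 12.8, 7.40 and 2.53 CPM and rose by 2.70 ± 0.42 (edgeR adjusted p = 0.000727). Nusap1, a spindle-associated protein, went from 1.36, 1.25, 1.78 and 0.657 to 11.9, 9.89, 6.13 and 1.87 CPM and rose by 2.56 ± 0.43 (edgeR adjusted p = 0.00136). In these 3 genes the groups did not overlap. In CPM, replicate 4 of CD8 CD5hi was nearer to CD8 CD5lo than to the other 3 libraries, which for Bub1b does not hold on the log2 scale.

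The other mitotic genes that rose included kinases, cyclins, kinesins and kinetochore proteins. Mki67, the antigen commonly stained to mark dividing cells, went from 9.84, 14.5, 15.3 and 4.22 to 63.3, 90.9, 61.0 and 19.6 CPM and rose by 2.42 ± 0.44 (edgeR adjusted p = 0.00257). Top2a, which untangles sister chromatids, went from 15.8, 20.2, 25.1 and 10.4 to 75.0, 87.7, 67.8 and 26.0 CPM and rose by 1.84 ± 0.32 (edgeR adjusted p = 0.0018). The promoters of these genes are the ones with CHR words shown above, and in both the lowest CD8 CD5hi library, replicate 4, was just above CD8 CD5lo. Cdk1, the mitotic kinase, and its cyclins Ccna2, Ccnb1 and Ccnb2 rose by 2.27, 2.44, 1.22 and 1.72 on the log2 scale. The checkpoint kinase Bub1 had the largest rise of all (3.16 ± 0.66, edgeR adjusted p = 0.00605), from 0.467 ± 0.182 to 4.17 ± 2.37 CPM (SD, n = 4). Aurkb and Birc5, both of the chromosomal passenger complex, rose by 2.34 and 1.98. The mitotic kinesins Kif11, Kif2c, Kif4 and Kif20a rose by 2.26, 2.08, 2.55 and 0.65. Kif4 had 0.713, 0.843, 1.25 and 0.258 CPM in CD8 CD5lo and 4.94, 7.17, 4.45 and 1.32 in CD8 CD5hi, again with replicate 4 just above CD8 CD5lo. Rises were also found for the kinetochore proteins Cenpe and Cenpf (1.62 and 2.31), the midzone protein Prc1 (0.98) and Ube2c, the ubiquitin-conjugating enzyme of the anaphase-promoting complex (2.41).

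The adjusted p of these rises was at most 0.0304 (Kif20a). The calls of Ccnb1, Kif20a, Prc1 and Cenpf were lost in 5, 5, 3 and 2 of 24 other settings, with adjusted p by edgeR of at most 0.0979, 0.126, 0.0642 and 0.0635. The libraries whose removal ended them were CD8 CD5hi replicate 2 for all 4 genes, CD8 CD5lo replicate 4 for Ccnb1, Kif20a and Prc1, and CD8 CD5hi replicate 1 and CD8 CD5lo replicate 1 for Ccnb1 and Kif20a. Opposite-strand genes cover 29.3% of the exonic bases of Kif20a (Cdc23), 22.8% of Ube2c (Tnnc2), 15.1% of Kif4 (Pdzd11), 12.5% of Ccna2 (Exosc9) and 11.1% of Prc1 (Rccd1), with the same limit of unknown strand as for Ccne2.

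The mitotic genes that did not pass without the block all had over 1 CPM per kb. Cdc20 had 9.66, 9.28, 10.8 and 7.43 CPM in CD8 CD5lo and 12.3, 16.7, 14.2 and 8.70 in CD8 CD5hi, overlapping, and changed by 0.48 ± 0.19 (edgeR adjusted p = 0.134). Plk1, polo-like kinase 1, changed by 0.51 ± 0.16 (edgeR adjusted p = 0.0528) and Aurka, aurora kinase A, by 0.31 ± 0.20 (edgeR adjusted p = 0.374). Plk1 passed with DESeq2 (DESeq2 adjusted p = 0.0167) and with halved counts (edgeR adjusted p = 0.0459). Cenpa had 22.6, 30.5, 43.1 and 26.4 against 29.3, 38.8, 53.4 and 33.0 CPM, with wide overlap and a change of 0.33 ± 0.25 (edgeR adjusted p = 0.468). It was higher in CD8 CD5hi at each replicate number, and it passed with the block. Kif23 (chromosome 9, 61915905 to 61946774, minus strand), a kinesin of the central spindle needed for cytokinesis, was the only one of the 43 genes that fell, from 59.3, 49.3, 49.2 and 50.7 to 47.5, 34.5, 37.2 and 29.2 CPM. The groups were apart, and the log2 change was -0.49 ± 0.13 (edgeR adjusted p = 0.0228). This call was lost, with adjusted p by edgeR of 0.0507 to 0.0933, without CD8 CD5lo replicate 1 or 4 or CD8 CD5hi replicate 2, 3 or 4, with the 3 B cell marker-rich libraries left out and with only the groups compared.

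**Figure D3:**
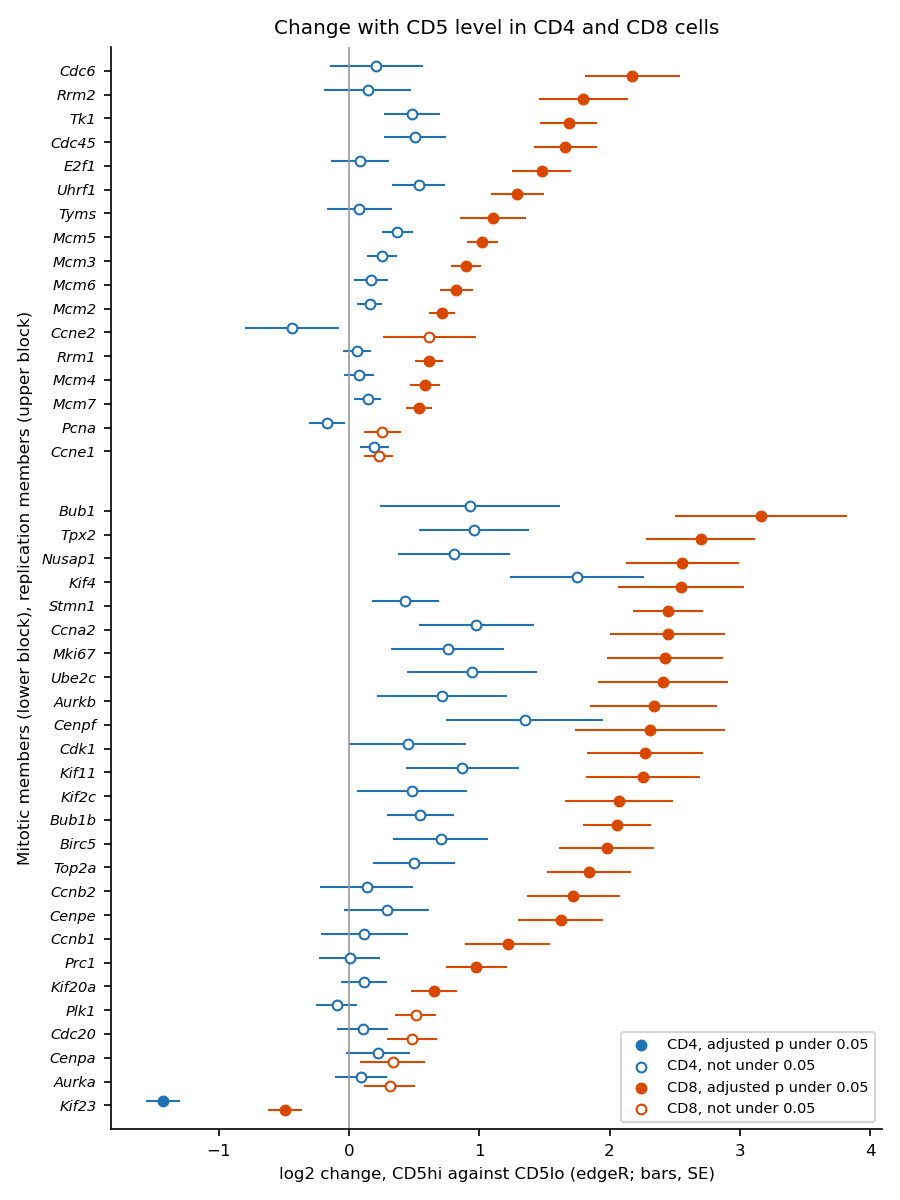
Log2 change of each gene at high against low CD5, in CD4 cells (blue) and CD8 cells (orange), from edgeR without replicate numbers in the fit, with the SE as bars. Filled points have an adjusted p under 0.05. In CD8 cells 35 of 43 genes are filled on the right, and in CD4 cells the only filled point is Kif23, on the left at -1.43.

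The change in CD8 cells was set beside each gene's level in the 8 CD4 libraries, which enter that comparison only through the shared estimate of spread. Of the mitotic genes, the 18 under 1 CPM per kb in CD4 cells had a median log2 change of 2.29 in CD8 cells and all 18 rose, while the 8 at or over that level had a median of 0.50 and 4 of them passed, Kif23 as the fall. Of the replication genes, the 5 under that level had a median of 1.66 with 4 called, and the 12 over it a median of 0.77 with 10 called. Under that level the mitotic median was the higher of both, and at or over it the replication median was. Stmn1 was over that level and rose by 2.45. The side of the split on which a gene falls depends on the exon length used, which was 5198 bases for Tk1 and 6089 for Tyms.

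**Figure D4:**
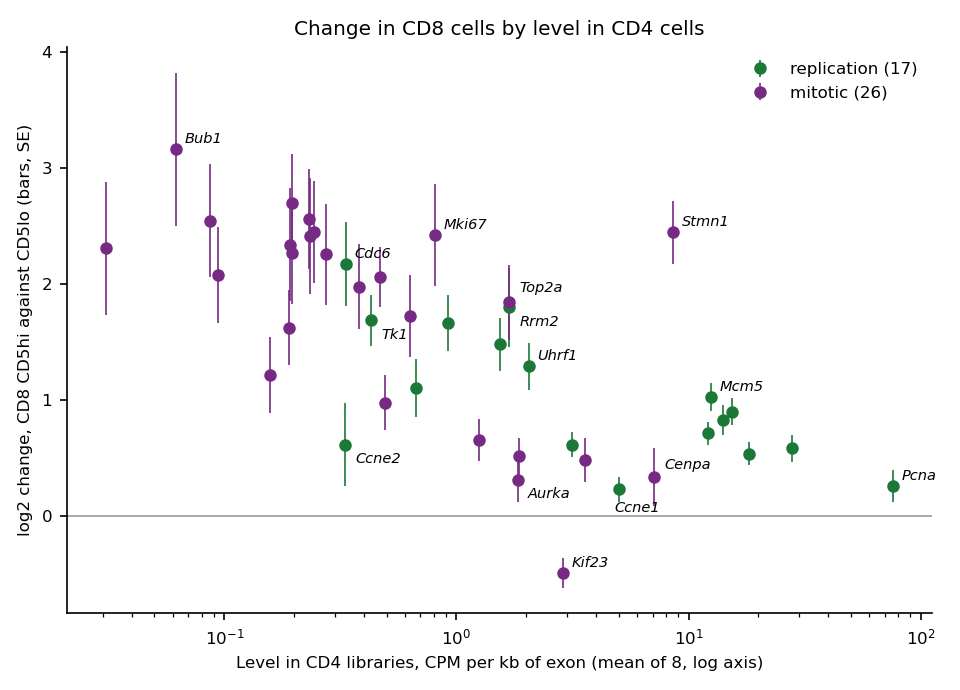
Log2 change of each gene in CD8 cells at high against low CD5 (edgeR, bars are SE) against its mean level in the 8 CD4 libraries in CPM per kb of exon, on a log axis. Replication genes are green and mitotic genes purple. Genes under 1 CPM per kb reach up to 3.16 (Bub1), and Pcna at the right end is at 0.26.

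Within CD8 CD5hi the libraries were uneven. Replicate 4 was the lowest of its group for 16 of 17 replication genes and 25 of 26 mitotic genes, and it was above every CD8 CD5lo library for 12 and 14 of them. Replicates 1, 2 and 3 were above every CD8 CD5lo library for 17, 16 and 16 replication genes and for 23, 24 and 25 mitotic genes. These counts were not made over all tested genes, so whether replicate 4 was also low for genes at large was not tested. With the 3 B cell marker-rich libraries left out, of which replicate 4 is one, 15 replication and 23 mitotic genes rose and 0 fell (7.01% of all tested genes rose), with medians of 1.09 and 2.47. Without replicate 4 alone, 14 and 23 rose (6.95% of all tested genes), with medians of 1.02 and 2.31.

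Several other marker lists moved with CD5 in CD8 cells, where 5.95% of all tested genes rose and 3.51% fell. Of the 10 naive T cell markers, 0 rose and 0 fell (median -0.03). They summed to 5657 to 6137 CPM in CD8 CD5lo and 5492 to 5971 CPM in CD8 CD5hi. The 15 effector and memory T cell markers summed to 714 to 972 CPM in CD8 CD5lo and 1186 to 1721 CPM in CD8 CD5hi, where replicate 4 was the lowest. Of the 14 tested, 5 rose and 0 fell (median 0.87), and none of the 15 was at 0 in either CD8 group. Cd44, low in the sort gate, ran from 2.70 to 7.35 CPM in CD8 CD5lo and was 19.7, 20.5, 7.61 and 10.7 CPM in CD8 CD5hi. The 9 regulatory T cell markers summed to 83.9 to 120 and 138 to 157 CPM with 3 higher, and the 8 thymocyte markers to 1451 to 1737 and 1097 to 1325 CPM with 3 of 5 tested lower and Rag2 at 0 in all libraries. The thymocyte list holds Cd8b1, a chain of CD8, and Themis, which mature T cells also express, so its sum does not measure thymocytes alone. The natural killer cell markers summed to 77.9 to 97.7 and 60.0 to 79.3 CPM with 1 of 3 tested higher and Klra4 at 0, and 1 of 6 plasma cell markers was lower. The 7 germinal centre B cell markers summed to 34.2 to 40.5 and 29.0 to 34.5 CPM with 0 of 3 tested called. The part of these cell types in the rise of the cell cycle genes was not tested.

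In CD4 cells, high CD5 went with mostly positive differences, and whether any of them passed depended on the fit. With the replicate number as a block, 8 of the 43 genes rose (5.69% of all tested genes), as given below. With edgeR and no block, 0 of 17 replication genes were called in either direction (median 0.16). Of 26 mitotic genes 0 rose and 1 fell (median 0.49), where 2.68% of all tested genes rose and 1.40% fell. At an unadjusted p under 0.05, 9 of the 43 were higher, against 7.17% of all tested genes. The change was positive for 39 of 43 genes, and the groups did not overlap, with CD4 CD5hi higher, for 7 replication and 4 mitotic genes, 11 in all, against 5.60% of all tested genes.

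Without the block, the one call in CD4 cells was Kif23, with 33.8, 32.4, 35.4 and 31.5 CPM in CD4 CD5lo replicates 1 to 4 and 11.5, 11.7, 15.1 and 11.2 in CD4 CD5hi. The groups were far apart, and the gene fell by 1.43 ± 0.13 on the log2 scale (edgeR adjusted p = 6.08e-06), a 2.69-fold lower level. Kif4, a chromosome-bound kinesin, had 0.168, 0.163, 0.340 and 0.204 against 0.795, 1.07, 0.514 and 0.578 CPM, with no overlap, and a change of 1.75 ± 0.51 (edgeR adjusted p = 0.0759). Mcm5 had 46.4, 40.3, 43.4 and 44.0 against 58.5, 54.1, 54.5 and 58.2 CPM, also with no overlap, and a change of 0.37 ± 0.12 (edgeR adjusted p = 0.115). Uhrf1 had 8.30, 6.60, 6.69 and 7.06 against 11.9, 12.2, 8.37 and 9.04 CPM, where the lowest CD4 CD5hi library was just above the highest CD4 CD5lo library, and a change of 0.53 ± 0.21 (edgeR adjusted p = 0.241).

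The other genes given in full had close or overlapping CD4 groups. Of the replication genes, Tk1 had 1.51, 1.66, 2.61 and 1.64 CPM in CD4 CD5lo and 2.63, 2.64, 2.72 and 2.36 in CD4 CD5hi. Mcm2 had 79.9, 77.3, 83.5 and 77.4 against 86.5, 95.2, 87.9 and 85.3 CPM, and Mcm3 had 49.7, 48.4, 60.3 and 52.7 against 60.9, 61.9, 64.8 and 64.0. Both helicase genes were higher in every CD4 CD5hi library without passing, with changes of 0.16 ± 0.10 (edgeR adjusted p = 0.626) and 0.25 ± 0.12 (edgeR adjusted p = 0.384), while the CD4 CD5hi libraries of Tk1 overlapped CD4 CD5lo replicate 3. Mcm7 had 79.5, 74.6, 80.3 and 73.6 against 90.5, 81.4, 87.8 and 80.4 CPM, with no overlap. Mcm4 had 86.8, 103, 104 and 96.4 against 94.4, 109, 107 and 102 CPM, and E2f1 had 5.57, 3.61, 5.72 and 4.04 against 5.01, 5.47, 5.10 and 4.49. In the last 2 genes the groups overlapped widely.

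Among the mitotic genes, Tpx2 had 0.647, 0.733, 0.666 and 0.434 CPM in CD4 CD5lo and 1.21, 1.67, 1.09 and 0.855 in CD4 CD5hi. Nusap1 had 0.634, 0.693, 0.797 and 0.600 against 1.15, 1.59, 1.14 and 0.880 CPM. Both were higher in every CD4 CD5hi library, with changes of 0.96 ± 0.42 (edgeR adjusted p = 0.337) and 0.81 ± 0.43 (edgeR adjusted p = 0.496). Bub1b had 1.20, 1.25, 1.80 and 2.24 CPM in CD4 CD5lo, which overlapped CD4 CD5hi. Stmn1 had 19.5, 19.6, 16.6 and 20.3 CPM in CD4 CD5hi, with 1 library at the level of the highest CD4 CD5lo library, and a change of 0.43 ± 0.26 (edgeR adjusted p = 0.584). Cdc20 had 6.81, 5.47, 8.06 and 5.46 against 7.60, 6.50, 8.10 and 5.52 CPM, overlapping.

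Samples with the same replicate number deviated together in CD4 cells, and with the replicate number as a block 1 replication gene and 7 mitotic genes rose (5.69% of all tested genes rose in that fit). These were Mcm5 (0.37, edgeR adjusted p = 0.0451 with the block), Cenpf (1.41, 0.0240), Kif11 (0.95, 0.0297), Tpx2 (0.96, 0.0252), Ube2c (0.96, 0.0478), Cenpa (0.25, 0.0258), Mki67 (0.71, 0.0487) and Kif4 (1.75, 0.0138), each given with its log2 change and its adjusted p. Kif23 remained lower with the block. DESeq2 called Kif4 alone higher. With the 3 B cell marker-rich libraries left out 4 genes rose (2.70% of all tested genes), Mcm3, Tk1, Mcm5 and Kif4. Without CD8 CD5hi replicate 4, which enters this comparison only through the shared estimate of spread, 3 rose (2.83% of all tested genes), and without CD8 CD5lo replicate 4 1 did. With edgeR and no block, 0 of the 10 naive T cell markers were higher and 0 lower (median 0.05). Of all tested genes, 2.68% were higher and 1.40% lower in that fit. The regulatory T cell markers summed to 93.2 to 117 CPM in CD4 CD5lo and 188 to 207 in CD4 CD5hi, with 6 of 9 higher and none at 0. The effector and memory T cell markers summed to 61.1 to 87.3 CPM in CD4 CD5lo and 96.9 to 113 in CD4 CD5hi, with 2 of 14 tested higher, 1 lower and Gzmk at 0 in CD4 CD5lo. The 7 natural killer cell markers summed to 23.4 to 40.9 and 12.0 to 19.5 CPM, with 2 of 3 tested lower, Klra4 and Klra8 at 0 in both CD4 groups and Klre1 at 0 in CD4 CD5lo. The thymocyte markers summed to 204 to 259 and 167 to 199 CPM, with 2 of 5 tested lower and the same limit on what that sum measures. The part of these cell types in the values of the cell cycle genes was not tested.

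The difference between the CD5 effects of both lineages was tested directly as an interaction. All 43 genes had a more positive change in CD8 than in CD4 cells, with medians of 0.66 for the replication and 1.36 for the mitotic genes, but 2 passed (0.177% of all tested genes passed with a more positive change in CD8 cells and 0.133% with a more negative one). The change of Stmn1 was larger in CD8 cells by 2.01 ± 0.37 (edgeR adjusted p = 0.0278). Kif23 fell in both lineages and fell less in CD8 cells, with a difference of 0.94 ± 0.18 (edgeR adjusted p = 0.0423). At an unadjusted p under 0.05, 34 of the 43 genes had a more positive change in CD8 cells, against 4.43% of all tested genes. The smallest p among replication genes were those of E2f1 (1.40 ± 0.32, edgeR adjusted p = 0.0871) and Tk1 (1.20 ± 0.30, edgeR adjusted p = 0.128), and Bub1b had 1.51 ± 0.36 (edgeR adjusted p = 0.106).

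This count depended on 1 library, on the tool and on the replicate block. With the block, 20 of the 43 genes had a more positive change in CD8 cells (1.51% of all tested genes). The replicate numbers did not pair the CD8 groups by the rule used. With DESeq2, 13 genes passed with a more positive change in CD8 cells (1.02% of all tested genes). Without CD8 CD5hi replicate 4, 14 replication and 8 mitotic genes had a more positive change in CD8 cells (0.783% of all tested genes), Mcm5 among them with 0.79 ± 0.10 (edgeR adjusted p = 0.00186). With the 3 B cell marker-rich libraries left out 12 and 8 did (0.626% of all tested genes). Leaving out any 1 of the other 15 libraries left 0 or 1 gene called, and the calls of Stmn1 and Kif23 were each lost in 13 of 23 other settings (highest adjusted p 0.0929 and 0.102, by edgeR or limma).

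**Figure D5:**
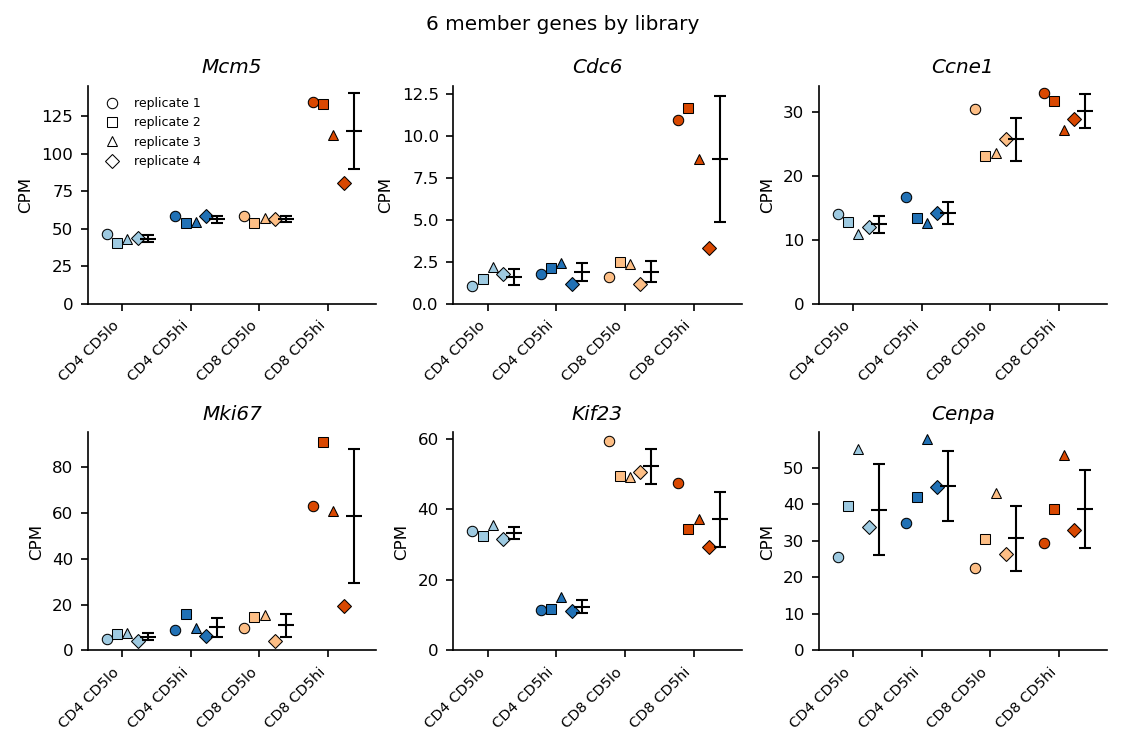
CPM of 6 genes in each library, by group, with marker shapes for replicate numbers and bars for the mean ± SD of 4 libraries. Mcm5, Cdc6 and Mki67 are highest in CD8 CD5hi, Ccne1 differs between CD4 and CD8 cells at both CD5 levels, Kif23 is lowest in CD4 CD5hi, and Cenpa follows the replicate number.

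At low CD5, CD8 and CD4 cells differed in a few of these genes. Of the replication genes 4 were higher in CD8 CD5lo (Ccne1, Uhrf1, Mcm6, Mcm5) and 1 lower (Pcna), and of the mitotic genes 3 were higher (Kif23, Kif4, Cenpf) and 1 lower (Stmn1), where 10.0% of all tested genes were higher and 9.44% lower. The medians were 0.19 and 0.65. Ccne1 had 14.1, 12.9, 11.0 and 12.0 CPM in CD4 CD5lo, so that the CD8 CD5lo values given above were all higher, by 1.05 ± 0.11 (edgeR adjusted p = 3.39e-06). Uhrf1 had 27.5, 24.0, 22.6 and 22.6 CPM in CD8 CD5lo against the 6.60 to 8.30 of CD4 CD5lo, a difference of 1.75 ± 0.21 (edgeR adjusted p = 1.06e-05) with no overlap. Kif23 was higher in CD8 CD5lo by 0.65 ± 0.13 (edgeR adjusted p = 0.00155), again with no overlap.

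Stmn1 and Pcna went against their classes at low CD5. Stmn1 had 15.1, 11.6, 13.0 and 16.6 CPM in CD4 CD5lo, all above the CD8 CD5lo libraries, and was lower in CD8 CD5lo (log2 difference -1.31 ± 0.26, edgeR adjusted p = 0.00178). Pcna had 195, 245, 184 and 149 CPM in CD4 CD5lo, overlapping CD8 CD5lo, and a difference of -0.43 ± 0.14 (edgeR adjusted p = 0.0408). The call of Pcna was lost in 14 of 24 other settings (highest adjusted p by edgeR or limma 0.153), among them without each of the 3 CD4 CD5lo replicates 1 to 3 and each CD8 CD5lo replicate. Those of Mcm5, Kif4 and Cenpf were lost in 8, 5 and 11 settings, and each of these genes lost it without CD4 CD5lo replicate 2 or 4 or CD8 CD5lo replicate 3, which left 4 genes higher. With the 3 B cell marker-rich libraries left out 9 genes were higher (8.32% of all tested genes) and 2 lower (7.04%), with Mcm3, Tk1 and Cdc20 gained and Cenpf lost. Without CD8 CD5hi replicate 4, 13 were higher (10.1% of all tested genes) and 3 lower (9.46%). The replicate numbers paired the samples here too, and with the block 15 genes were higher (15.7% of all tested genes) and 3 lower (16.3%), the third being Cenpa.

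At high CD5, 14 of 17 replication and 24 of 26 mitotic genes were higher in CD8 cells and 0 lower, where 15.6% of all tested genes were higher and 14.8% lower. The medians were 1.08 and 2.08. Uhrf1 had 11.9, 12.2, 8.37 and 9.04 CPM in CD4 CD5hi and 67.6, 74.9, 62.7 and 31.6 in CD8 CD5hi, a difference of 2.51 ± 0.21 (edgeR adjusted p = 1.8e-07) or 5.70-fold. Ccne1 had 16.7, 13.5, 12.6 and 14.2 CPM in CD4 CD5hi and was higher in CD8 CD5hi by 1.08 ± 0.11 (edgeR adjusted p = 1.84e-06). Kif23 was higher in CD8 CD5hi by 1.58 ± 0.13 (edgeR adjusted p = 1.54e-07), and Bub1b, with 2.71, 2.30, 1.85 and 2.64 CPM in CD4 CD5hi, by 2.06 ± 0.26 (edgeR adjusted p = 1.69e-05). In these 4 genes the groups did not overlap.

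The genes not called at high CD5 were Mcm4, Pcna, Ccne2, Aurka and Cenpa. Pcna differed by -0.0042 ± 0.14 (edgeR adjusted p = 0.987), Mcm4 by 0.28 ± 0.11 (edgeR adjusted p = 0.0831) and Cenpa by -0.22 ± 0.25 (edgeR adjusted p = 0.557). With the replicate block 41 genes were higher (23.4% of all tested genes) and 1, Cenpa, lower (23.3% of all tested genes), with a difference of -0.23 and an edgeR adjusted p of 0.00996. With the 3 B cell marker-rich libraries left out 41 were higher (16.4% of all tested genes) and 0 lower (13.9%), with Mcm4, Ccne2 and Aurka gained. The call of Stmn1 (0.71 ± 0.26, edgeR adjusted p = 0.0471) was lost in 14 of 24 other settings, with an adjusted p of at most 0.162 by edgeR or limma, among them without any 1 library other than CD4 CD5lo replicate 3, CD8 CD5lo replicates 3 and 4 and CD8 CD5hi replicate 4. That of Kif20a was lost without CD4 CD5hi replicate 1 or 4 or CD8 CD5hi replicate 1 or 2 and with only the groups compared (at most 0.139, edgeR adjusted p). Ccne1 differed between the lineages at both CD5 levels, by 1.05 ± 0.11 and 1.08 ± 0.11 on the log2 scale, and its interaction was 0.04 ± 0.16 with an edgeR adjusted p of 1.

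A few genes followed the replicate number more than the group. Cenpa had 25.6, 39.4, 55.1 and 33.9 CPM in CD4 CD5lo and 34.9, 42.0, 57.8 and 44.8 in CD4 CD5hi. Replicate 3 was the highest and replicate 1 the lowest in all 4 groups. Of the variance of its log2 CPM, 70.0% lay between replicate numbers and 26.6% between groups. For Pcna, with 171, 188, 183 and 146 CPM in CD4 CD5hi, these shares were 48.4% and 37.8%, and replicate 4 was the lowest in every group. Ccne2 had 46.2% and Aurka 44.2% between replicate numbers. In CD8 cells, whether Cenpa, Pcna, Ccne1, Cdc20 and Plk1 passed depended on whether the replicate number entered the fit. Plk1 also passed there with DESeq2 and with halved counts. The medians were 9.20% between replicate numbers and 80.6% between groups for the replication genes, 15.8% and 76.2% for the mitotic genes, and 29.0% and 40.1% for all tested genes. Within CD8 CD5lo, replicate 3 was the highest for 27 of the 43 genes and replicate 4 the lowest for 31, counts that were not made over all tested genes.

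Other genes of the same processes were taken from lists made by function, but with earlier results of these data known. Their counts are descriptions, beside 5.95% of all tested genes that rose and 3.51% that fell with CD5 in CD8 cells. Of 59 other replication genes, 26 rose and 1 fell with CD5 in CD8 cells (median 0.41). Those with the smallest p were Cdca7, a MYC and E2F target (1.20 ± 0.14, edgeR adjusted p = 8.59e-05), Pole, the catalytic subunit of DNA polymerase epsilon (1.34 ± 0.17, edgeR adjusted p = 0.000163), and the DNA ligase Lig1 (1.29 ± 0.18, edgeR adjusted p = 0.000257). Of 64 other mitotic genes, 47 rose and 0 fell (median 1.22), with the smallest p for Cdca8, a passenger complex subunit (1.69 ± 0.25, edgeR adjusted p = 0.000594), Cdc25b, a phosphatase that activates CDKs (0.57 ± 0.09, edgeR adjusted p = 0.000728), and the separase gene Espl1 (2.46 ± 0.38, edgeR adjusted p = 0.000741). Of 16 E2F, RB and DREAM genes, 5 rose and 0 fell (median 0.12): the E2F partners Tfdp1 (0.83 ± 0.14, edgeR adjusted p = 0.00116) and Tfdp2, the repressors E2f8 (2.68 ± 0.56, edgeR adjusted p = 0.00603) and E2f7 (2.53 ± 0.56, edgeR adjusted p = 0.00858), and E2f3. The mitotic list had the largest of the 3 medians. Msh6, a mismatch repair gene, was the replication gene that fell, by 0.41 ± 0.08 (edgeR adjusted p = 0.00277). In CD4 cells these 3 lists had 1, 1 and 2 genes higher and 1, 0 and 0 lower, with Pole2, Cdc25b, E2f3 and Tfdp2 higher and Msh6 lower. Of all tested genes, 2.68% were higher and 1.40% lower in CD4 cells. Cdc25b rose by 0.57 ± 0.09 there (edgeR adjusted p = 0.000807).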

How the data were processed

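RNA-seq libraries of 16 sorted T cell samples were analysed from the deposited table of raw counts per gene, 24421 genes by 16 columns, each column matched to 1 sample (0 columns without one). The submitters' processing notes name STAR 2.5.2a, featureCounts 1.4.6-p3, DESeq2 and the build mm10. The sources used here do not give the annotation, the strand setting or how the 2 technical replicates named in the design text were merged. The kit was either an unstranded or a stranded TruSeq kit, per the labels' protocols. Counts of 1 to 9 were even in 73.9 to 80.5% of cases by library, and counts of at least 1000 in 49.2 to 51.3%, so halved counts were also tried.

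Counts were fitted in edgeR 4.0.16 (R 4.3.3) with TMM factors (0.981 to 1.017), 1 term per group, quasi-likelihood F tests with 12 residual degrees of freedom and two-sided p-values. Genes were kept by filterByExpr (minimum count 10, minimum total 15), which left 13554, and p-values were adjusted over these by Benjamini-Hochberg with a threshold of 0.05. Each SE is the log2 change divided by the square root of F. Scores used log2 CPM with a prior count of 2. DESeq2 1.42.0, limma voom 3.58.1 and the other settings changed 1 choice at a time, and the fits were tested on simulated data. With depths of 71447252 to 93418385 counts (median 78528233), a count of 10 at the median depth is 0.127 CPM.

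The numbers of the replicates were taken from the labels. Deviations from the group means of same-numbered samples correlated by 0.478, 0.251, 0.534 and 0.337 between the CD4 groups, 0.484, 0.203, 0.704 and 0.532 between the CD5lo groups and 0.538, 0.240, 0.335 and 0.235 between the CD5hi groups, all over 0.1, so the numbers were taken to pair these samples as a hint from the data. Between the CD8 groups they were 0.562, 0.255, 0.027 and -0.040, so by the rule of over 0.1 in every pair those were not, although the other 3 sets of pairs link the same numbers. The lowest 2 involve CD8 CD5lo replicate 3 and CD8 CD5hi replicate 4, both rich in B cell markers. The highest of all, 0.704, is between CD4 CD5lo replicate 3 and CD8 CD5lo replicate 3, which are also both rich in these markers. Whether the markers raise that correlation was not tested.

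The genes, their classes and the other lists were chosen with earlier results of these data known. All 43 are named; full values are given, in each class, for the 3 highest per kb, those of smallest p (4 in CD8 cells and 2 in each other comparison) and those called against their class. From each other list the 3 of smallest p in CD8 cells are given. Mki67, Top2a, Cdc6 and Mcm6 were singled out after their values were seen. Gene positions and exon lengths are those of GENCODE vM21 (GRCm38) and promoters those of RefSeq (GRCm38.p6).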

Additional observations from a re-analysis of the deposited data

Results flagged for a closer look

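In each group of 4 libraries, the library at either end was set against the other 3. A gap to the nearest library, as a share of the group's range, above Dixon's critical value was found in 9 of 172 sets of 4 values, where chance gives about 1 in 20. Tk1 was high in CD4 CD5lo replicate 3 (2.612 CPM, the others 1.513 to 1.657) and low in CD8 CD5lo replicate 4 (1.809, the others 2.748 to 2.938). Mcm2 was low in CD8 CD5lo replicate 1 (70.99 CPM, the others 75.27 to 75.638), and Rrm1 high in CD4 CD5hi replicate 2 (38.596, the others 34.086 to 34.479). Cdk1 was high in CD4 CD5hi replicate 1 (1.359 CPM, the others 1.006 to 1.054). Bub1 was low in CD8 CD5lo replicate 4 (0.194 CPM, the others 0.555 to 0.562) and Cenpe in CD4 CD5hi replicate 4 (1.207, the others 1.99 to 2.005). Kif23 was high in CD4 CD5hi replicate 3 (15.102 CPM, the others 11.204 to 11.716) and in CD8 CD5lo replicate 1 (59.312, the others 49.206 to 50.669).

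The effect of CD5 differed between CD8 and CD4 cells by the test of the interaction for Stmn1 (2.0141 on the log2 scale, edgeR adjusted p = 0.0278) and Kif23 (0.9361, edgeR adjusted p = 0.0423). No explanation of these values was tested.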

How the results depend on the processing

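Of 774 values recomputed under other settings, 696 stayed on their side of the threshold or within the stated limits and 78 moved, and 0 called values changed sign. The number of the 43 genes higher with CD5 in CD8 cells was 31 to 37 when each library was left out in turn, 35 in full. In CD4 cells the number higher was 0 in full, 1 with DESeq2, 2 with only the groups compared, 8 with the replicate block, 4 with the 3 B cell marker-rich libraries left out and 0 to 3 with each library left out. In CD8 cells the number lower (1) was 0 with only the groups compared, 0 with those 3 libraries left out and 0 to 1 with each library left out. For the interaction the number higher (2) was 13 with DESeq2, 1 with limma voom, 20 with the replicate block, 20 without those 3 libraries and 0 to 22 with each library left out. Between lineages at low CD5 the number higher (7) was 4 with limma voom, 15 with the block and 4 to 13 with each library left out, and the number lower (2) was 1 with limma voom, 1 with only the groups compared and 1 to 3 with each library left out. At high CD5 the number lower (0) was 1 with the block. The share of all tested genes also moved with the setting. In CD4 cells 2.68% were higher in full, 5.69% with the block and 2.70% without those 3 libraries. At low CD5 10.0% were higher in full and 15.7% with the block. At high CD5 14.8% were lower in full and 23.3% with the block. Shares for limma voom, only the groups compared and DESeq2 in CD4 cells are not given here, so those counts stand without one.

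Of the other lists in CD4 cells, the replication genes higher (1) were 2 with DESeq2, 2 with only the groups compared, 4 with the block, 4 without those 3 libraries and 0 to 2 with each library left out, and those lower (1) were 0 with only the groups compared and 0 to 1 with each library left out. The mitotic genes higher (1) were 2 with only the groups compared, 6 with the block and 2 without those 3 libraries, and those lower (0) were 1 with the block. The E2F, RB and DREAM genes lower (0) were 1 with DESeq2, 1 with only the groups compared, 1 with the block and 0 to 1 with each library left out. In CD8 cells the replication genes higher (26) were 43 with the block, where the share of all tested genes went from 5.95% to 13.4%. The cause of these moves was not tested. Fits with libraries left out also had fewer samples.

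The replicate block gave 40 of the 43 genes higher and 1 lower in CD8 cells (13.4% and 11.6% of all tested genes), adding Cenpa (0.34, edgeR adjusted p = 0.00217), Pcna (0.25, 0.0287), Ccne1 (0.23, 0.0108), Cdc20 (0.47, 0.0103) and Plk1 (0.50, 0.0232). For the interaction 1.51% of all tested genes were higher with it. Replicate numbers did not pair the CD8 groups by the rule used, so the block's values for CD8 cells and for the interaction rest on a number alone, and replicates 3 and 4 correlated better with another number (0.426 and 0.049). These are the numbers of the B cell marker-rich CD8 libraries. Members whose change passed no threshold in either fit changed sign in 16 cases in CD4 cells (7 genes), 7 for the interaction (2 genes), 16 at high CD5 (1 gene) and 17 at low CD5 (5 genes). Depth limits Bub1 and Cenpf in CD4 cells, where some libraries were under the filter's cutoff.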
